A study of Mus musculus with 16 samples.

Results

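The IL-33 reporter gate was compared between 2 regions of the nervous system, asking of each gene whether its difference between reporter-positive and reporter-negative astrocytes was another in the spinal cord than in the thalamus. For every mouse the positive minus negative difference in log2(FPKM + 1) was taken in each region, and the thalamus value was subtracted from the spinal cord value, which gave 4 values per gene. FPKM counts sequenced fragments relative to the transcript's length and to the library's mapped total. Members are the genes for which such a difference could be measured on both sides, with a group mean of at least 5 FPKM in at least 1 gate of each region. There were 9278 of them among 39171 annotated features, and 9128 of the 9278 also passed a filter of 1 FPKM in at least 4 libraries and were tested. The rule used levels and no difference between groups. Just inside it lay Ric8 and Tomm40, whose limiting group means were 5.0032 and 5.0042 FPKM, and just outside it lay Eef1e1 and Parp3, at 4.9995 and 4.9989 FPKM.

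The libraries came from 4 mice of the C57BL/6 strain at postnatal day 15. All carried 1 mCherry allele at the cytokine gene Il33 (IL-33-mCherry (het)) together with Aldh1l1-GFP, so no group lacks either reporter. Astrocytes of each region were sorted by flow cytometry into IL-33 positive and IL-33 negative cells, which gave 16 libraries in 4 groups of 4, each mouse contributing 1 library to every group. The labels call the cells of both gates astrocytes, separate the gates by IL-33, and do not say whether Aldh1l1-GFP was itself gated on or whether other cell types were removed.

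IL-33 is a nuclear cytokine that is released by damaged or activated cells and acts on the receptor ST2. In the developing nervous system it is made by a subset of astrocytes in grey matter, where it acts on microglia and synapses. Astrocytes of grey and white matter differ in shape, filament content and transporter repertoire, and oligodendrocyte-lineage and ependymal cells are the other glia that share early history with them.

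In the summed FPKM the libraries ran from 984985 to 2344482, and 13260 to 14731 features per library had 1 FPKM or more. Between 43.7% and 73.9% of the sum came from the mitochondrial chromosome. Pan-astrocyte markers were present in every group, with 25 of 25 listed markers at a mean of 1 FPKM or more in each. Sequencing depth is unknown, because the table holds no counts. No library was identical to another (0 pairs).

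Il33 itself did not separate the gates beyond the test in either region. Its FPKM in the 4 mice was 26.9, 15.2, 13.3 and 19.001 in thalamus negative libraries and 27.4, 31.98, 26.6 and 23.8 in thalamus positive libraries. The spinal cord values were 36.5, 21.6, 19.98 and 20.4 in negative and 24.6, 31.2, 25.1 and 30.6 in positive libraries. The gates overlapped in both regions. The gate difference was 0.58 ± 0.22 (SE) in the thalamus (adjusted p = 0.074) and 0.21 ± 0.22 in the spinal cord (adjusted p = 0.56) by limma. The difference between regions was -0.37 ± 0.32 (adjusted p = 0.66). Aldh1l1, the folate enzyme gene that drives the GFP reporter, differed by 0.65 ± 0.35 (adjusted p = 0.41).

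Of the 9128 members tested, 194 (2.13%) had a difference of gate differences with an adjusted p under 0.05 in the limma fit over all 16 libraries and are named called here, beside 2.56% of all 16340 features tested. Higher in the spinal cord were 76 members (0.833%, beside 1.13% of all features), and lower in the spinal cord were 118 (1.29%, beside 1.43%). Called higher or lower in the spinal cord refers to this difference, and not to a gene's level there. The members' shares lay below the shares over all features. All 194 had a per-mouse value of the same sign in 4 of 4 mice, as had 24.1% of all members tested. The call rests on the mean of these same 4 values, so the shared sign is not separate evidence for it. Protein-coding genes made up 174 of the 194, short RNAs 12 and other biotypes 8, and 9 of the 194 had a group at 0 in every library. Among the 9128 members tested 7423 were protein-coding and 989 were short RNAs. The median difference was 0.09 over the members and 0.02 over all features tested.

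The number called depended strongly on how the spread was estimated. When the 4 per-mouse values alone were tested against 0, 5 members passed, 2 higher and 3 lower, and 2 of the 5 were among the 194. With the mouse as a fixed term in the 16-library fit 157 passed. Without the libraries of mouse 2, 3 or 4 there were 32, 35 and 40 calls, of which 29, 33 and 34 were among the 194. Without mouse 1 there were 177, of which 110 were among the 194. Without the thalamus negative library of mouse 1 there were 344 calls (182 of them among the 194), and without the spinal cord positive library of mouse 2 there were 107 (106). In data simulated from these libraries, 14% of 100 genes with a log2 difference of 1 were recovered and 60% of 100 with a log2 difference of 2. The simulation fitted 18027 features, with noise independent between libraries and no mouse effect. Its changed genes were protein-coding members expected above the floor in spinal cord positive libraries. The rates therefore do not carry over to called genes near the floor. Slc38a1 and Gjc3, of 58 named genes that were called, passed under every alternative run.

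**Figure D1:**
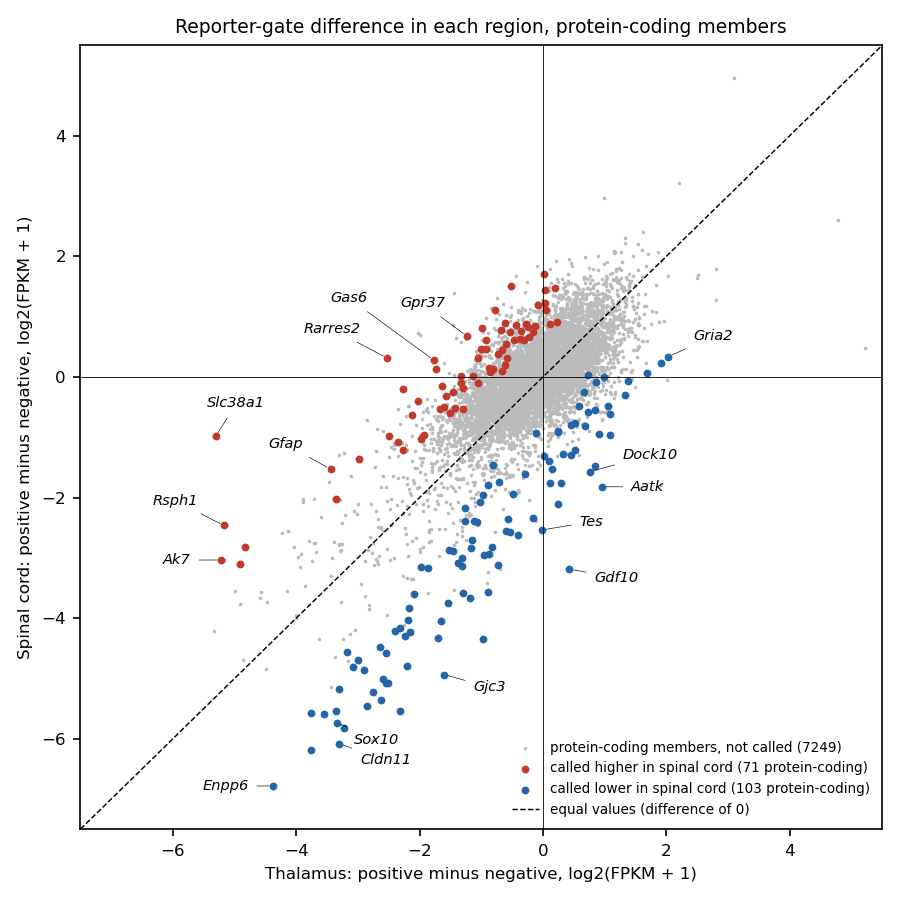
Gate difference (positive minus negative, log2(FPKM + 1), mean of 4 mice) in the thalamus on the x axis and in the spinal cord on the y axis, for 7423 protein-coding members, 5 of which lie outside the axes. Red points are the 71 called higher and blue points the 103 called lower in the spinal cord, on either side of the dashed line of equal differences.

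The called genes did not share 1 pattern. A difference of gate differences equals the region difference (spinal cord minus thalamus) in positive libraries minus that in negative libraries, so each gene was also read for the gate in which the regions lay further apart. Among the 103 protein-coding genes lower in the spinal cord, the region difference was larger in size in negative libraries for 85 and in positive libraries for 18. Among the 71 higher ones the order was the other way, with 22 larger in negative and 49 in positive libraries. The region difference alone was called in negative libraries only for 78 of the 103 and in positive libraries only for 12. For the 71 the same counts were 18 and 40. Over all features tested the regions differed in 9.81% in negative libraries and in 6.1% in positive libraries, and over the members in 8.44% and 7.49%.

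**Figure D2:**
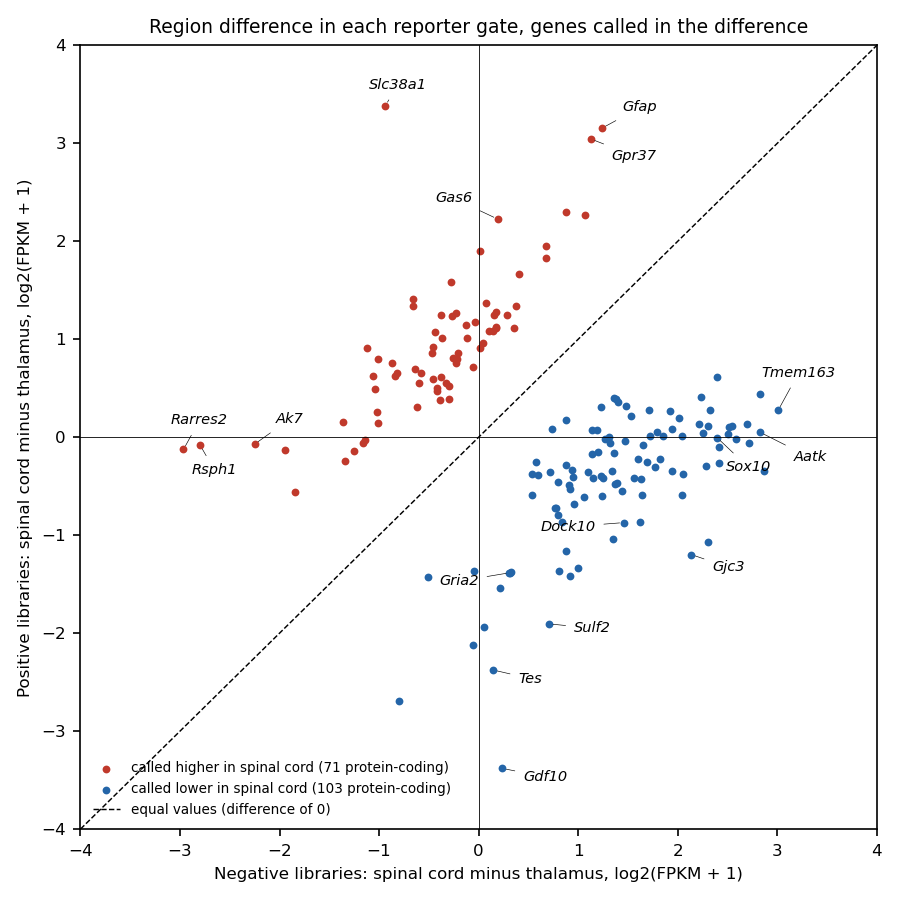
Region difference (spinal cord minus thalamus, log2(FPKM + 1), mean of 4 mice) in negative libraries on the x axis and in positive libraries on the y axis, for the 174 protein-coding members called. Most of the 103 blue genes lie far to the right near a positive-library difference of 0, and most of the 71 red genes lie higher up with smaller negative-library differences.

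The signs of the gate differences were also counted for each direction. A direction is the sign of their difference, so the contrast in signs and medians was partly fixed by the selection. A gene called lower could not have an estimate below 0 in the thalamus and above 0 in the spinal cord. The reverse held for a gene called higher. Of the 103 genes lower in the spinal cord, 69 had lower estimates in positive libraries of both regions, and in 58 of these both regions' falls were called. Another 29 had higher estimates in positive libraries of the thalamus and lower ones in the spinal cord, with both regions called in 6 of the 29. Of the 71 genes higher in the spinal cord, 27 had lower estimates in positive libraries of both regions, with both called in 16. Another 37 had lower estimates for the thalamus and higher ones for the spinal cord, with both called in 4. For the 103 the median gate differences were -0.97 (thalamus) and -2.71 (spinal cord), and for the 71 they were -0.99 and 0.20. Over all features tested the gate difference was called in 25.2% (thalamus) and 19.6% (spinal cord), and over the members in 29.1% and 22.4%.

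The largest difference of all protein-coding members was that of Slc38a1, which encodes a sodium-coupled neutral amino acid transporter that carries glutamine (ENSMUSG00000023169, chromosome 15, 96571418-96642913 on GRCm38). In the thalamus its FPKM was 56.4, 48.9, 55.4 and 72.99 in the negative libraries of mice 1 to 4 and 0.345, 0.437, 0.496 and 0.684 in the positive ones. In the spinal cord it was 20.6, 31.6, 35.3 and 33.8 in negative and 14.1, 13.8, 15.6 and 14.6 in positive libraries. None of the 4 groups overlapped another, and thalamus positive libraries were the only ones under 1 FPKM. The gate difference was -5.31 ± 0.18 for the thalamus and -0.98 ± 0.18 for the spinal cord. Their difference was 4.32 ± 0.25 (SE, limma, adjusted p = 2.5e-07), with per-mouse values of 4.89, 3.98, 4.11 and 4.30. It was carried by positive libraries, where the regions differed by 3.38 ± 0.18, while in negative libraries the same difference was -0.94 ± 0.18.

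Slc38a1 was the only one of the 12 amino acid transporter members called, although all 12 had estimates above 0, with a median of 0.83. Its relatives Slc38a2 and Slc38a3 were at 0.87 and 0.93, with adjusted p-values of 0.15 and 0.14. The summed FPKM of the listed transporters was 1516.0 to 1911.0 in spinal cord positive libraries, above the 691.9 to 1017.0 seen over the other 3 groups.

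**Figure D3:**
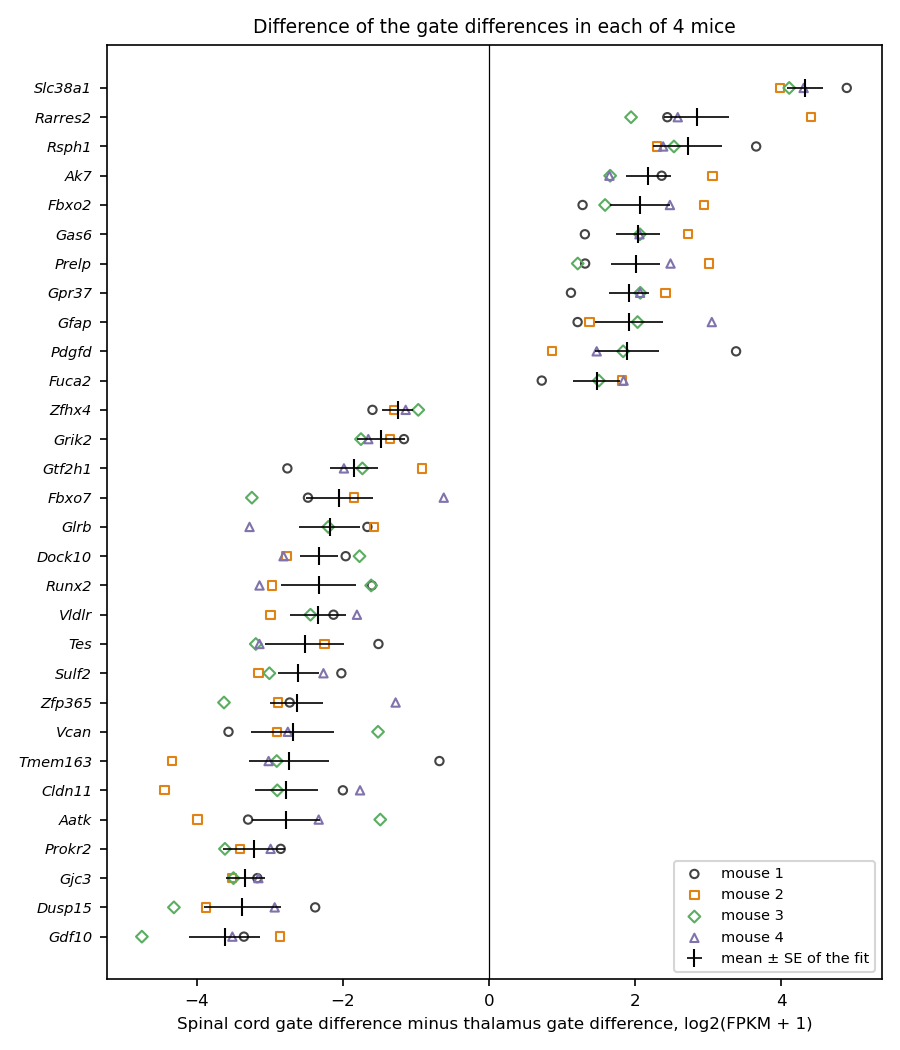
Difference of the gate differences (spinal cord minus thalamus, log2(FPKM + 1), x axis) in each of the 4 mice for genes named by size, with the fitted mean and its SE as black marks. The 4 values of Slc38a1 lie between 3.98 and 4.89 and those of Gjc3 between -3.52 and -3.16, while Tmem163 ranges from -4.34 to -0.68.

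Other genes that were higher in the spinal cord also owed this to positive libraries. Gpr37, an orphan receptor gene of glia, was one of them (chromosome 6, 25665878-25690729). Its FPKM was 9.19, 11.6, 7.12 and 7.97 in thalamus negative and 4.01, 3.17, 2.89 and 2.72 in thalamus positive libraries. In the spinal cord it was 29.5, 20.2, 15.6 and 18.9 in negative and 31.6, 36.3, 32.3 and 33.6 in positive libraries. No group overlapped another, and the positive gate was the low gate in the thalamus and the high gate in the spinal cord. The difference was 1.92 ± 0.27 (adjusted p = 0.0016), from gate differences of -1.24 and 0.68.

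Gas6, which encodes a ligand of the TAM receptor kinases used in the uptake of dying cells, was low in thalamus positive libraries only. There it was at 2.88, 1.89, 2.14 and 1.37 FPKM, against 7.39, 10.2, 12.4 and 7.73 FPKM in thalamus negative libraries. In the spinal cord it was at 10.4, 7.76, 14.2 and 11.4 FPKM in negative and 12.1, 13.8, 13.9 and 12.98 FPKM in positive libraries, which overlapped. The difference was 2.04 ± 0.30 (adjusted p = 0.0018). Among 16 phagocytosis members Gas6 was the only one called higher, and Elmo1, a gene of the engulfment machinery, the only one called lower, at -1.56 ± 0.34 (adjusted p = 0.022). Elmo1 lost its call without any 1 of 4 libraries, the thalamus positive library of mouse 2 (0.054), thalamus positive library of mouse 3 (0.053), thalamus positive library of mouse 4 (0.051) and spinal cord positive library of mouse 1 (0.056), and without mouse 2 (0.16), mouse 3 (0.22) and mouse 4 (0.18).

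Prelp, which encodes a small leucine-rich proteoglycan, fell in both regions but less in the spinal cord. It was at 61.4, 112, 71.8 and 97.4 FPKM in thalamus negative and 2.84, 1.68, 2.24 and 1.34 FPKM in thalamus positive libraries. The spinal cord values were 54.04, 37.7, 77.4 and 47.4 FPKM in negative and 7.42, 6.37, 7.09 and 5.43 FPKM in positive libraries. The negative groups of the 2 regions overlapped and the positive groups did not. The thalamus gate difference was -4.83 ± 0.24 and the spinal cord one -2.82 ± 0.24, and the difference between them was 2.00 ± 0.34 (adjusted p = 0.0052).

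Fbxo2, an F-box gene for the recognition of glycoproteins, had a difference of 2.07 ± 0.41 (adjusted p = 0.013). Positive libraries held 2.82, 3.03, 2.62 and 1.78 FPKM (thalamus) and 7.06, 9.75, 10.3 and 6.82 FPKM (spinal cord), with overlapping negative libraries of 14.3 to 20.4 and 4.397 to 14.9 FPKM. Gfap, the intermediate filament gene of fibrous and reactive astrocytes, was at 4.21, 5.799, 4.25 and 3.59 FPKM in thalamus positive and 45.3, 51.2, 47.2 and 45.3 FPKM in spinal cord positive libraries. Thalamus negative libraries held 36.2, 32.4, 84.7 and 112 FPKM and spinal cord negative libraries 142, 97.8, 192 and 136 FPKM. Positive libraries lay below negative ones in the spinal cord, and in the thalamus too, without overlap in either. The difference of 1.92 ± 0.47 was called by a narrow margin (adjusted p = 0.045). It was lost in 13 of 16 fits that left out 1 library (adjusted p from 0.057 to 0.098) and with the mouse as a fixed term (0.063). A pseudocount of 5 (0.15), no filter on low values (0.072) and rescaling (0.055) ended the call of Gfap too.

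Pdgfd, which encodes a ligand of the PDGF receptor beta, followed the same order in positive libraries, with 5.15, 4.91, 4.38 and 4.602 FPKM (thalamus) and 20.5, 21.1, 22.2 and 18.6 FPKM (spinal cord). Its negative libraries overlapped, at 4.79 to 20.7 and 6.27 to 11.2 FPKM. The difference was 1.89 ± 0.44 (adjusted p = 0.035), and it was lost in 11 of 16 fits without 1 library (adjusted p from 0.055 to 0.078) and with the mouse as a fixed term (0.063). Without a filter on low values the adjusted p of Pdgfd was 0.055.

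When all libraries of 1 mouse were left out, several of these positive-library calls were lost. Gpr37 was lost without mouse 2 (0.057) and mouse 4 (0.061), Gas6 without mouse 2 (0.063), Prelp without mouse 2 (0.093) and mouse 4 (0.1) and Fbxo2 without mouse 2 (0.059), mouse 3 (0.083) and mouse 4 (0.16), where the values in parentheses are adjusted p-values. Gfap was lost without each of the 4 mice and Pdgfd without 3 of them, with adjusted p-values of up to 0.26 and 0.24. In the test of the 4 per-mouse values the 6 genes other than Slc38a1 had adjusted p-values of 0.18 for Gas6 to 0.22 for Pdgfd.

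A smaller set was lower in the spinal cord because of positive libraries. Gdf10, which encodes a growth factor of the TGF-beta superfamily related to BMP3, had the largest negative difference (ENSMUSG00000021943, chromosome 14, 33923587-33937983). Its FPKM in the thalamus was 10.4, 15.5, 15.6 and 20.6 in negative and 15.05, 23.8, 19.2 and 26.7 in positive libraries. In the spinal cord it was 14.6, 9.89, 44.3 and 15.9 in negative and 1.15, 1.26, 1.05 and 0.895 in positive libraries. The 4 spinal cord positive libraries lay below the other 12, and the other 3 groups overlapped one another. The difference was -3.62 ± 0.49 (limma, adjusted p = 0.0011), with per-mouse values of -3.35, -2.86, -4.75 and -3.51.

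Sulf2, an extracellular sulfatase gene that trims heparan sulfate, fell in positive libraries of both regions and fell further in the spinal cord. It was at 98.1, 124, 91.6 and 91.4 FPKM in thalamus negative and 13.5, 16.3, 13.4 and 10.03 FPKM in thalamus positive libraries. The spinal cord libraries held 136, 190.4, 201 and 140.1 FPKM in the negative and 3.95, 1.98, 2.91 and 2.502 FPKM in the positive gate. No group overlapped another. The gate differences were -2.84 ± 0.20 and -5.46 ± 0.20, and the difference between them was -2.61 ± 0.28 (adjusted p = 0.00014).

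Gria2, which encodes the AMPA receptor subunit that limits calcium entry, rose in thalamus positive libraries and was not called between the gates of the spinal cord. It was at 17.6, 11.4, 9.804 and 10.5 FPKM in thalamus negative and 43.5, 63.96, 52.3 and 51.6 FPKM in thalamus positive libraries, without overlap. Spinal cord libraries were at 15.01, 19.4, 9.86 and 18.4 FPKM in negative and 21.2, 17.8, 18.4 and 20.6 FPKM in positive sorts, with overlap. The difference was -1.70 ± 0.30 (adjusted p = 0.0077). Glrb, the gene of the glycine receptor beta subunit, differed by -2.18 ± 0.42 (adjusted p = 0.012), with 13.6 to 20.1 FPKM in thalamus positive and 4.26 to 8.25 FPKM in spinal cord positive libraries.

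The lipoprotein and reelin receptor gene Vldlr had 7.15 to 8.296 FPKM in thalamus positive libraries and 1.78 to 3.37 FPKM in spinal cord positive ones, and a difference of -2.34 ± 0.38 (adjusted p = 0.0039). Tes, the gene of the focal adhesion protein testin, was at 30.8 to 45.6 and 4.66 to 9.695 FPKM in the same groups, with a difference of -2.52 ± 0.54 (adjusted p = 0.021). Runx2, a transcription factor gene best known from bone, was at 4.63 to 8.85 and 1.36 to 2.33 FPKM, with a difference of -2.33 ± 0.51 (adjusted p = 0.024). Spinal cord positive libraries lay below thalamus positive libraries without overlap for all 3 genes, and the negative libraries of the regions overlapped for all 3.

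Gdf10 and Sulf2 kept their calls in each fit without 1 library or 1 mouse, but not in the test of the 4 per-mouse values (0.09 and 0.099). Gria2 was lost without mouse 2 (0.14) and mouse 4 (0.13), Glrb without mouse 2 (0.067), mouse 3 (0.061) and mouse 4 (0.18) and Vldlr without mouse 2 (0.071) and mouse 3 (0.083). Tes was lost without the thalamus positive library of mouse 3 (0.053) and spinal cord positive library of mouse 1 (0.051), and without mouse 2 (0.085), mouse 3 (0.23) and mouse 4 (0.21). Runx2 was lost without the thalamus positive library of mouse 2 (0.059), thalamus positive library of mouse 3 (0.054), spinal cord positive library of mouse 2 (0.058), spinal cord positive library of mouse 3 (0.06) and spinal cord positive library of mouse 4 (0.054), and without each of the 4 mice.

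In 14 members (0.153%, beside 0.141% of all features tested) the gate difference was called in opposite directions in the 2 regions and the difference was called as well. Protein-coding genes were 10 of the 14. Lower in thalamus positive and higher in spinal cord positive libraries were Gpr37, Fuca2, Clu and Psd2, the last named here after its values were seen. Higher in the thalamus and lower in the spinal cord were Aatk, Dock10, Fbxo7, Gtf2h1, Grik2 and Zfhx4.

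Dock10, a gene of the DOCK family of exchange factors, had the smallest adjusted p of these 10 genes (chromosome 1, 80501073-80758527). Its FPKM was 6.395, 4.14, 6.68 and 3.86 in thalamus negative and 8.56, 11.2, 9.36 and 8.59 in thalamus positive libraries. Spinal cord libraries had 17.5, 14.95, 12.9 and 18.7 in the negative and 5.15, 4.55, 4.497 and 4.53 in the positive gate. The gates did not overlap in either region. The gate difference was 0.76 ± 0.18 (adjusted p = 0.0077) for the thalamus and -1.57 ± 0.18 (adjusted p = 2.7e-05) in the spinal cord, and the difference was -2.33 ± 0.26 (adjusted p = 0.0002). It kept that call in each fit without 1 library or 1 mouse, but not in the test of the 4 per-mouse values (0.14). Dock10 also stands on the list of newly formed oligodendrocyte markers.

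Aatk, a neural kinase gene, was at 2.46, 3.28, 9.06 and 3.65 FPKM in thalamus negative and 8.84, 8.05, 8.67 and 10.4 FPKM in thalamus positive libraries. The spinal cord libraries held 31.1, 65.3, 34.6 and 22.2 FPKM in the negative and 8.29, 7.82, 11.2 and 10.3 FPKM in the positive gate. The thalamus gates overlapped through the negative library of mouse 3, and spinal cord negative libraries lay above the other 12. The difference was -2.78 ± 0.46 (adjusted p = 0.0046), and the positive libraries of the regions differed by only 0.05 ± 0.33.

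Gtf2h1, which encodes a subunit of the transcription and repair factor TFIIH, was at 1.73, 6.17, 4.27 and 3.33 FPKM in thalamus negative and 7.44, 6.72, 7.68 and 8.64 FPKM in thalamus positive libraries. It was at 12.1, 9.49, 11.5 and 11.1 FPKM in spinal cord negative and 4.98, 4.96, 5.19 and 5.83 FPKM in spinal cord positive libraries. The gates separated in both regions, and the difference was -1.85 ± 0.33 (adjusted p = 0.0069). Zfhx4, a zinc finger homeobox gene, ranged over 10.2 to 15.3 and 16.1 to 18.99 FPKM in the thalamus gates and 17.6 to 26.2 and 11.7 to 13.4 FPKM in those of the spinal cord, negative first. Its gates also separated in both regions, with a difference of -1.25 ± 0.21 (adjusted p = 0.0051).

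**Figure D4:**
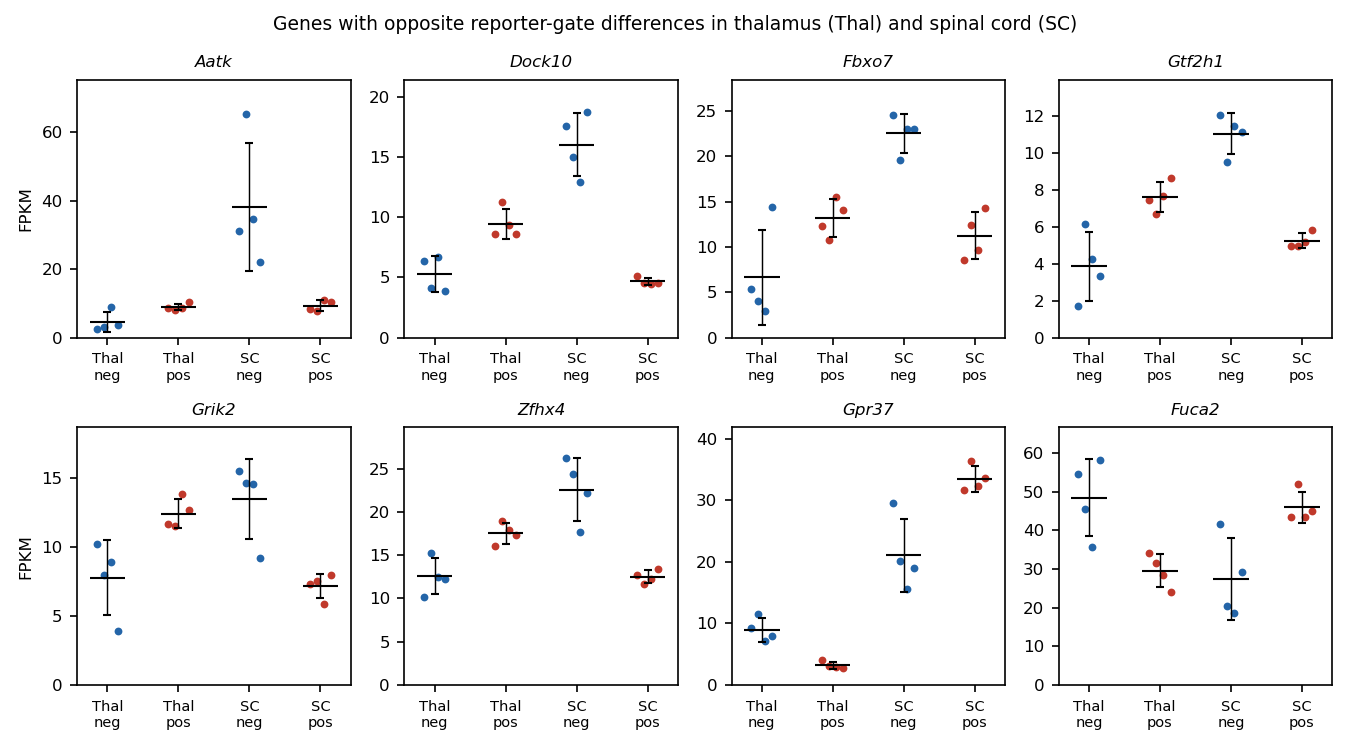
FPKM (y axis, from 0) of 8 genes called in opposite directions in the thalamus (Thal) and spinal cord (SC), in negative (blue) and positive (red) libraries; bars are the mean ± SD of 4 mice. The positive group lies above the negative in thalamus and below it in spinal cord for 6 genes, and the other way for Gpr37 and Fuca2.

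Of the remaining genes of this kind, the kainate receptor gene Grik2 differed by -1.48 ± 0.33 (adjusted p = 0.028), the ubiquitin ligase gene Fbxo7 by -2.05 ± 0.46 (adjusted p = 0.027), the fucosidase gene Fuca2 by 1.47 ± 0.32 (adjusted p = 0.024) and the clusterin gene Clu by 1.16 ± 0.26 (adjusted p = 0.028). Each of these 4 was lost when single libraries were left out, Grik2 in 9, Fbxo7 in 6, Fuca2 in 6 and Clu in 8 of 16 fits, with adjusted p-values of up to 0.073, 0.068, 0.064 and 0.073. They were also lost without mouse 1 (0.079), mouse 2 (0.19) and mouse 3 (0.24) for Grik2, mouse 1 (0.15), mouse 2 (0.16) and mouse 3 (0.26) for Fbxo7, mouse 2 (0.2), mouse 3 (0.12) and mouse 4 (0.22) for Fuca2 and mouse 2 (0.16), mouse 3 (0.23) and mouse 4 (0.22) for Clu. Aatk was lost without mouse 1 (0.05), mouse 2 (0.071) and mouse 4 (0.059), Gtf2h1 without mouse 3 (0.1) and mouse 4 (0.12) and Zfhx4 without mouse 2 (0.067), mouse 3 (0.058) and mouse 4 (0.1). The count of 14 was 29 without the thalamus negative library of mouse 1, and 5 without the thalamus positive library of mouse 3 or the spinal cord positive library of mouse 2.

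Of the 118 members lower in the spinal cord, 24 (20.3%) stood on 1 or more of 3 lists of oligodendrocyte-lineage markers. These lists held 20, 16 and 12 of the 9128 members tested, some genes standing on more than 1. Over all members tested 1.29% were called lower. The lists were chosen with earlier results of these data known, so these counts are a description and not a test. Of 20 tested members on the list of myelinating oligodendrocyte markers 12 were lower in the spinal cord and 0 higher (2 higher at an unadjusted p under 0.05), with a list median of -1.84. Lower here means a larger fall in positive libraries of the spinal cord: the list's median gate difference was -4.48 there and -2.65 in the thalamus. The list's median region difference was 2.24 in negative and 0.37 in positive libraries, with the spinal cord above the thalamus. Of 16 on the list of newly formed oligodendrocytes 10 were lower and 0 higher (0 also at an unadjusted p under 0.05), with a median of -1.67. Of 12 on the precursor list 3 were lower, with a median of -0.70. The median over all members was 0.09.

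Gjc3, which encodes connexin 29 of myelinating glia, had the smallest adjusted p of the lower genes (ENSMUSG00000056966, chromosome 5, 137953461-137963098). It was at 43.9, 28.9, 24.3 and 28.4 FPKM in thalamus negative and 13.5, 9.16, 8.23 and 7.68 FPKM in thalamus positive libraries. The spinal cord libraries held 125, 149, 132 and 148 FPKM in the negative and 3.53, 3.45, 3.29 and 3.94 FPKM in the positive gate. No group overlapped another, and the spinal cord held both the highest and the lowest of the 4 groups. The difference was -3.34 ± 0.27 (adjusted p = 8.1e-06), with 2.14 ± 0.19 between the regions in negative and -1.20 ± 0.19 in positive libraries, each called.

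For 22 of the 24 called genes of these lists the region difference was called in negative libraries only, and for the other 2 it was called in both gates. Positive means were under 2 FPKM in both regions for 13 of the 24. Sox10, the transcription factor gene of the oligodendrocyte lineage, was at 21.7, 19.1, 18.5 and 11.5 FPKM in thalamus negative and 101, 111, 98.9 and 74.2 FPKM in spinal cord negative libraries, without overlap. Thalamus positive libraries held 0.567 to 1.17 FPKM and spinal cord positive ones 0.528 to 1.48 FPKM, with overlap. The difference was -2.40 ± 0.31 (adjusted p = 0.00078). Enpp6, a choline phosphodiesterase gene that marks newly formed oligodendrocytes, followed the same order, with 23.6 to 90.3 and 194 to 321 FPKM in negative libraries and a difference of -2.41 ± 0.46 (adjusted p = 0.012). Both positive means were under 2 FPKM in 26 of the 103 lower genes and in 4 of the 71 higher ones, and on the log2(FPKM + 1) scale such genes have little room left to differ in the positive gate.

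Prokr2, a prokineticin receptor gene, was at 14.3, 12.3, 5.18 and 5.83 FPKM in thalamus negative and 77.9, 109.8, 53.1 and 51.2 FPKM in spinal cord negative libraries, without overlap, and at 0.745 to 1.09 and 0.437 to 0.68 FPKM in the positive ones. Its difference was -3.22 ± 0.42 (adjusted p = 0.00088). Vcan, the gene of the matrix proteoglycan versican, had 236, 154, 223 and 126 FPKM in spinal cord negative libraries, above the 15.9 to 91.2 FPKM of thalamus negative ones, and a difference of -2.68 ± 0.57 (adjusted p = 0.021). Cldn11, the claudin gene of myelin tight junctions, differed by -2.78 ± 0.43, Dusp15, a dual-specificity phosphatase gene, by -3.37 ± 0.52, Tmem163, which encodes a zinc-binding membrane protein, by -2.74 ± 0.55, and the zinc finger gene Zfp365 by -2.63 ± 0.37 (adjusted p = 0.003, 0.0029, 0.015 and 0.0013). Mog and Mag, both myelin protein genes, differed by -2.58 ± 0.48 and -2.52 ± 0.52 (adjusted p = 0.0094 and 0.017).

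Summed markers of these cells were higher in negative than in positive libraries of both regions, and such sums can rest on a few abundant genes. Single members did not all follow the lists: 3 of 20 myelinating, 1 of 16 newly formed and 4 of 12 precursor members had estimates of the difference above 0. The summed FPKM of 27 myelinating oligodendrocyte markers was 866.9 to 1733.0 in thalamus negative, 5548.0 to 5815.0 in spinal cord negative, 248.4 to 302.3 in thalamus positive and 531.8 to 657.1 in spinal cord positive libraries. For 19 newly formed oligodendrocyte markers it was 716.6 to 856.3, 1757.0 to 2322.0, 284.1 to 304.6 and 275.8 to 301.2 in the same order. The sums of 19 precursor markers lay closer together, at 374.0 to 422.4, 625.6 to 735.1, 232.5 to 321.8 and 297.8 to 362.7. No listed marker of any of these kinds was at 0 throughout a group. The part that oligodendrocyte-lineage cells in the negative gates had in these differences was not tested. In such bulk samples fewer cells of a type and less RNA per cell cannot be told apart.

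Gjc3 kept its call in every fit, the test of the 4 per-mouse values included (0.038). Sox10 and Prokr2 were lost only in that test (0.14 and 0.067). Enpp6 was lost without mouse 2 (0.16), mouse 3 (0.14) and mouse 4 (0.067), Cldn11 without mouse 3 (0.064), Dusp15 without mouse 2 (0.072) and mouse 4 (0.061), Tmem163 without mouse 2 (0.078), mouse 3 (0.16) and mouse 4 (0.19), Zfp365 without mouse 2 (0.054), and Mog without mouse 2 (0.072), mouse 3 (0.1) and mouse 4 (0.089). Mag was lost without each of the 4 mice (adjusted p of up to 0.13). Vcan was lost without mouse 1 (0.13), mouse 2 (0.19) and mouse 4 (0.1), and without the thalamus positive library of mouse 3 (0.053), spinal cord positive library of mouse 1 (0.051) and spinal cord positive library of mouse 2 (0.052). Tmem163 was also lost with a pseudocount of 0.1 (adjusted p = 0.06).

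Among the axon guidance and growth factor genes that were lower, the regions did not differ in the same gate throughout. Of 19 axon guidance members 3 were lower, the netrin receptor gene Unc5c at -2.04 ± 0.32, the plexin gene Plxnb3 at -1.84 ± 0.45 and the semaphorin gene Sema5a at -1.70 ± 0.37 (adjusted p = 0.0034, 0.043 and 0.023). Plxnb3 and Sema5a differed between the regions by 1.85 and 1.72 in negative libraries and by 0.02 and 0.01 in positive ones. Unc5c differed by 0.88 in negative libraries, which overlapped, and by -1.16 in positive ones, and Gdf10, described above, differed mainly in positive ones. The ligand gene Bmp4 was at 84.7 to 169.8 FPKM in spinal cord negative libraries, 13.3 to 31.4 FPKM in thalamus negative ones and under 2 FPKM in all positive ones, with a difference of -2.43 ± 0.37 (adjusted p = 0.0028). Besides Bmp4 and Gdf10, none of 15 BMP and Id members was called. Unc5c was lost without mouse 2 (0.072), mouse 3 (0.081) and mouse 4 (0.072) and Bmp4 without mouse 2 (0.062), mouse 3 (0.078) and mouse 4 (0.063). Plxnb3 was lost in 12 and Sema5a in 5 of 16 fits without 1 library, with adjusted p-values of up to 0.094 and 0.058. Plxnb3 was also lost with the mouse as a fixed term (0.051), with a pseudocount of 0.1 (0.14), without a filter on low values (0.071), with a filter of 5 FPKM (0.051) and without each of the 4 mice (up to 0.22), and Sema5a without mouse 2 (0.19), mouse 3 (0.2) and mouse 4 (0.17).

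The 3 genes called on the ependymal and motile cilium lists, Rsph1, Ak7 and Rarres2, were higher in the spinal cord, and for all 3 the region difference was called in negative libraries only. Of 9 tested ependymal members 3 were higher in the spinal cord and 0 lower (8 and 0 at an unadjusted p under 0.05), all 9 estimates were above 0, and the median was 1.70. Of 26 members of the motile cilium axoneme 2 were higher and 0 lower (11 and 0 at an unadjusted p under 0.05), with a median of 0.81. Higher in this comparison means that the fall in positive libraries was smaller in the spinal cord: the median ependymal gate difference was -4.03 for the thalamus and -2.46 for the spinal cord.

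Rsph1, which encodes a radial spoke protein of motile cilia, was at 54.1, 67.4, 46.4 and 58.02 FPKM in thalamus negative and 3.81, 13.3, 8.76 and 5.71 FPKM in spinal cord negative libraries. Thalamus positive libraries held 0.0622 to 1.22 FPKM and spinal cord positive ones 0.0933 to 1.12 FPKM, with overlap. The difference was 2.71 ± 0.47 (adjusted p = 0.0057). Ak7, an adenylate kinase gene of cilia, behaved alike, at 47.2, 52.97, 31.7 and 39.4 and 6.57, 5.53, 10.1 and 11.3 FPKM in the negative libraries of the 2 regions, with a difference of 2.18 ± 0.31 (adjusted p = 0.0017).

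Rarres2, the gene of the secreted attractant chemerin, was at 58.2, 76.2, 36.6 and 63.5 FPKM in thalamus negative and 10.6, 9.87, 8.91 and 7.01 FPKM in thalamus positive libraries. In the spinal cord it was at 8.398, 2.44, 8.69 and 8.51 FPKM in negative and 9.005, 9.24, 8.82 and 6.08 FPKM in positive libraries, with overlap. Thalamus negative libraries lay above the other 12. The difference was 2.84 ± 0.45 (adjusted p = 0.0032). Rsph1 was lost without mouse 3 (0.082) and mouse 4 (0.074), Ak7 without mouse 2 (0.051) and Rarres2 without mouse 4 (0.053). With a pseudocount of 0.1, Rsph1 and Ak7 were lost too (adjusted p = 0.15 and 0.053).

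The summed FPKM of 16 ependymal markers was 368.0 to 631.3 in thalamus negative, 111.8 to 140.9 in spinal cord negative, 15.05 to 22.32 in thalamus positive and 17.49 to 25.3 in spinal cord positive libraries, and no marker was at 0 throughout a group. In positive thalamus libraries 13 of the 16 had means under 1 FPKM, and 11 did so in the spinal cord. The part of ependymal cells in these differences was not tested. Of 25 ciliogenesis members only the tubulin gene Tubb4b was called, at 1.62 ± 0.29 (adjusted p = 0.0073), and it was lost without mouse 2 (0.12), mouse 3 (0.1) and mouse 4 (0.084).

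Astrocyte genes had small differences in 1 direction, few of which passed. Of 25 pan-astrocyte members 24 had estimates above 0, with a median of 0.68, and 18 had an unadjusted p under 0.05, beside 8.98% of all members with such a p in this direction. After adjustment 2 were called, Clu and the neurotensin receptor gene Ntsr2 at 1.06 ± 0.23 (adjusted p = 0.023). Of 22 protoplasmic members 21 had estimates above 0, with a median of 0.63, 12 had an unadjusted p under 0.05, and the acyl-CoA synthetase gene Acsl6 was called at 0.90 ± 0.17 (adjusted p = 0.011). Acsl6 was at 520.2, 470.1, 484 and 515 FPKM in thalamus negative, 484, 455, 448 and 405 FPKM in thalamus positive, 571, 519.8, 478 and 444 FPKM in spinal cord negative and 784, 887, 861 and 828 FPKM in spinal cord positive libraries. Only the last group stood apart, above the other 12.

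The summed FPKM of pan-astrocyte markers was 24520.0 to 28430.0 in spinal cord positive libraries and 11930.0 to 22320.0 over the other 3 groups. For protoplasmic markers it was 9142.0 to 10150.0 against 4364.0 to 6448.0. Water channel gene Aqp4 (0.86 ± 0.28, adjusted p = 0.13) and connexin 43 gene Gja1 (0.51 ± 0.24, 0.34) were among the highly expressed genes that did not pass. The glutamate transporter gene Slc1a3 was at -0.11 ± 0.25 (0.89). Ntsr2 was lost without the thalamus positive library of mouse 1 (0.052), thalamus positive library of mouse 3 (0.061), thalamus positive library of mouse 4 (0.058), spinal cord positive library of mouse 2 (0.061) and spinal cord positive library of mouse 3 (0.06), and without each of the 4 mice, and Acsl6 without mouse 2 (0.12), mouse 3 (0.2) and mouse 4 (0.2).

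**Figure D5:**
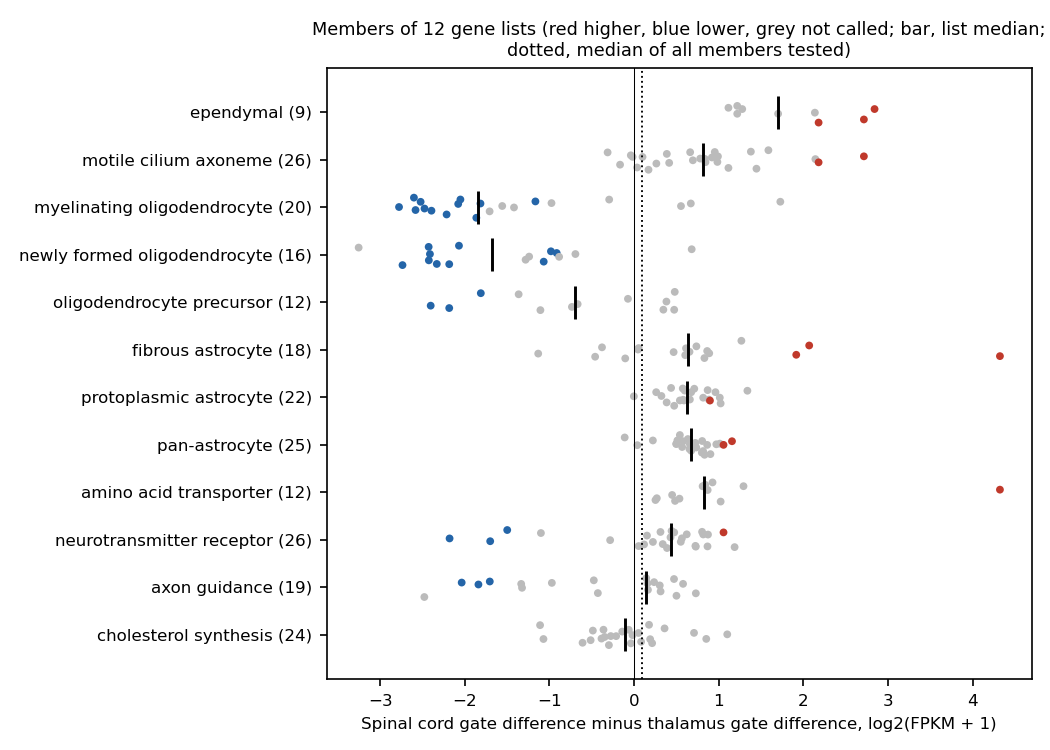
Difference of the gate differences (x axis, log2(FPKM + 1)) of the tested members of 12 gene lists, with the number of members in parentheses; red and blue points were called higher and lower, grey points were not called, and bars are list medians. The myelinating, newly formed and precursor oligodendrocyte lists centre at -1.84, -1.67 and -0.70. The ependymal list centres at 1.70 and the pan-astrocyte list at 0.68, beside 0.09 for all members.

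Fibrous astrocyte members had 3 of 18 called higher, Slc38a1, Fbxo2 and Gfap, with a median of 0.63. Estimates below 0 were found for 4 of the 18, the lowest for Igfbp5 at -1.13 ± 0.43 (limma, adjusted p = 0.22). Of 26 neurotransmitter receptor members 1 was higher, Ntsr2, and 3 were lower, Glrb, Gria2 and the lysophosphatidic acid receptor gene Lpar1 (-1.50 ± 0.26, adjusted p = 0.0068), which was lost without mouse 2 (0.063), mouse 3 (0.1) and mouse 4 (0.12). Of 14 glutamate handling members Slc38a1 was higher, and the glutamate transporter gene Slc1a1 was lower at -2.42 ± 0.45 (adjusted p = 0.0088), lost without mouse 2 (0.13), mouse 3 (0.14) and mouse 4 (0.075). Slc1a1 also stands on the list of newly formed oligodendrocyte markers, and its positive means were 1.29 (thalamus) and 0.74 FPKM (spinal cord). Those of Lpar1 were 1.75 and 0.65 FPKM. Of 22 hypoxia and glycolysis members Ldhb, a lactate dehydrogenase gene, was called at 1.15 ± 0.23 (adjusted p = 0.013), lost without mouse 2 (0.16), mouse 3 (0.2) and mouse 4 (0.13). The chaperone gene Hsp90aa1 was the only call among 15 heat shock members, at 1.62 ± 0.28 (adjusted p = 0.0051), lost without mouse 2 (0.051) and mouse 4 (0.098).

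Map1b, a microtubule protein gene of neurons and immature oligodendrocytes, was the only call among 7 neuronal members, at -1.73 ± 0.24 (adjusted p = 0.0014), lost without mouse 2 (0.051) and mouse 3 (0.058). The summed FPKM of 22 neuronal markers was 111.7 to 170.8 in thalamus negative, 178.1 to 205.5 in spinal cord negative and 28.11 to 49.85 in positive libraries, and its part in the difference of Map1b was not tested. Among 14 Wnt pathway members the transcription factor gene Tcf7l2 was called at -0.91 ± 0.20 (adjusted p = 0.024), with 100.2 to 124 FPKM in thalamus positive and 38.3 to 43.998 FPKM in spinal cord positive libraries. It was lost in 5 of 16 fits without 1 library (adjusted p of up to 0.065) and with the mouse as a fixed term (0.057). Tcf7l2 was further lost without mouse 2 (0.13), mouse 3 (0.21) and mouse 4 (0.27), and it also stands on the list of newly formed oligodendrocyte markers.

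The growth factor gene Fgf1 (0.95 ± 0.20), the transcription factor gene Nfix (0.96 ± 0.22), the glutathione transferase gene Gstm1 (1.14 ± 0.27), the serpin gene Serpina3n (1.38 ± 0.32) and the MHC class I light chain gene B2m (1.26 ± 0.32) were higher in the spinal cord, with adjusted p-values of 0.02, 0.033, 0.04, 0.036 and 0.05. Each lost its call in 3, 11, 13, 12 and 12 of 16 fits without 1 library, in that order, with adjusted p-values of up to 0.11. Nfix and Serpina3n were also lost with the mouse as a fixed term (0.064 and 0.059). Gstm1 was lost without a filter on low values (0.051) and with an untrended prior (0.051). B2m was lost with a pseudocount of 0.1 (0.058) or 5 (0.054), without a filter (0.071), with a filter of 5 FPKM (0.051), after rescaling (0.051) and with an untrended prior (0.06). Fgf1 and Gstm1 were lost without each of the 4 mice and the other 3 genes without 3 of them, with adjusted p-values of up to 0.18 for Fgf1, 0.27 for Nfix, 0.29 for Gstm1, 0.28 for Serpina3n and 0.36 for B2m.

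Of the 48 gene lists, 20 had tested members and no call in limma. Of the 177 members on these 20 lists, 30 had an unadjusted p under 0.05 with an estimate above 0, and 8 below 0. Over all members tested the shares with such a p were 8.98% above 0 and 5.97% below 0. The 20 lists included 24 cholesterol synthesis members (median -0.10), 15 Notch and hedgehog members (0.36), 15 secreted synaptogenic members (0.39), 13 potassium channel members (0.38), 12 connexin and endfoot members (0.55), 12 cytokine members (0.09), 11 S100 and annexin members (0.50), 8 immediate early members (-0.16) and 6 cell cycle members (-0.04). Markers of microglia (2 members), endothelium (3), mural cells (5) and choroid plexus (3) were also among them. None of the Hox genes was a member, because none reached 5 FPKM in both regions.

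The authors' deposited table of positive against negative libraries, which does not test regions against each other, lists 444 features, and 434 of them were members tested. Of these, 14 (3.23%) were called in the difference, 13 higher and 1 lower. Over all members tested 2.13% were called, 76 higher and 118 lower. The other 180 called members are not in the authors' deposited table.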

How the data were processed

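RNA of flow-sorted cells was isolated with a Qiagen micro kit and made into cDNA libraries with a kit from NuGEN, per the labels' protocols. Per the submitters' processing notes, FastQC, TopHat2 2.0.11, Bowtie2 2.2.3, HTSeq 0.6.1p1, Cufflinks, Cuffnorm, DESeq2 and the build GRCm38 were used, with no roles given. The table analysed holds FPKM values deposited by the authors for 16 libraries, which may already be normalized between libraries, since their median-of-ratios factors ran from 0.986 to 1.07. The authors' deposited comparison table also holds group mean FPKM, a mean normalized signal, log2 fold changes, a test score and p-values, and was used only for which features it lists.

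The 16340 features that reached 1 FPKM in 4 or more libraries were fitted with limma 3.58.1 (R 4.3.3) on log2(FPKM + 1), with 1 coefficient per group and a trended prior. Contrasts were tested two-sided with Benjamini-Hochberg adjustment over all features tested, and fold changes on this scale understate those of weakly expressed genes. The script was tested on simulated data. Names were given in the file for 22919 features and taken from the reference annotation by identifier for 15208, and coordinates are those of GENCODE vM21 on GRCm38.

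Mouse numbers pair libraries because the labels give them as the animal. Deviations from group means correlated by 0.0408 on average over 24 same-mouse pairs of libraries (-0.0224 to 0.1047) and by -0.0135 over 72 other pairs, and blocked fits were run as alternatives. Named genes were Il33, Aldh1l1 and, among called genes with 1 sign in 4 mice and an ordinary symbol, the 10 largest in each direction, the 8 largest with opposite gate differences, the 6 largest in each direction carried by positive libraries, and up to 4 called members per gene list (otherwise the 2 most abundant). The members, the 48 lists and the tests were chosen with earlier results of these data known.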

Additional observations from a re-analysis of the deposited data

Results flagged for a closer look

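The 194 members called in the difference are, by that test, genes whose gate difference was not the same in thalamus and spinal cord. Opposite gate differences with a called difference stood out among them in Aatk (-2.78), Dock10 (-2.33), Fbxo7 (-2.05), Gtf2h1 (-1.85), Gpr37 (1.92), Grik2 (-1.48), Fuca2 (1.47), Zfhx4 (-1.25) and Clu (1.16), in log2(FPKM + 1). In Bmp4 the value of 1 mouse lay far from the others: mouse 1 had -0.84, and mice 2 to 4 had -2.89, -2.94 and -3.04. Bmp4 was not the only named gene with 1 mouse apart: Il33 had 0.25 in mouse 4, and -0.58, -0.52 and -0.63 in mice 1 to 3. Mouse 1 stood apart in other called genes too, with 1.12 in Gpr37 (2.41, 2.07 and 2.07 in mice 2 to 4). Serpina3n had 0.53 in mouse 1 (1.81, 1.79 and 1.38). Mouse 2 stood apart in Rarres2, with 4.4 (2.44, 1.94 and 2.58 in mice 1, 3 and 4). Without the thalamus or spinal cord negative library of mouse 1 there were 344 and 268 calls, against 194 with all libraries. Without its positive libraries there were 134 and 114. With 97 named genes examined, some such gaps can arise by chance. Whether mouse 1 was an outlier was not tested.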

How the results depend on the processing

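No called named gene changed direction under any alternative, and 2 of these 58, Slc38a1 and Gjc3, never lost the call. Estimates of named genes that were not called could change sign, as in Ramp2 (-1.11 to 0.18) and Abcb1a (-0.21 to 0.76). The test of the 4 per-mouse values (a replicate block) called 2 members higher, 3 lower and 5 in either direction, and 0 in opposite directions (14 in the 16-library fit); 56 of the 58 named genes lost the call there. With the mouse as a fixed term (replicate block) 57 were higher and 100 lower, 157 in all and 145 of them among the 194, and 13 were opposite. Without a filter on low values 7 were opposite. The count in either direction was 162 with a pseudocount of 0.1, 201 with 5, 192 after median-of-ratios rescaling and 177 with an untrended prior. Leaving out 1 library or 1 mouse gave 6 to 172 higher, 23 to 172 lower, 32 to 344 in either direction and 1 to 29 opposite. Without mouse 2, 3 or 4, the call was lost by 47, 40 and 43 named genes, and without mouse 1 by 12. The fit without mouse 1 gave 177 calls, of which 110 were among the 194. Depth is unknown, so no counting interval could be given, and 26 of the 103 lower genes had positive means under 2 FPKM in both regions.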
